A study of Homo sapiens with 4 samples.

Results

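HCT116 cells are an established human colorectal carcinoma cell line, grown here without any treatment named in the labels, and all libraries came from this line. The series holds 4 chromatin immunoprecipitation sequencing libraries, 1 each for TAF3, H3K4me3, RNA polymerase II (RNAPII) and input DNA, which had no antibody. Cells were fixed in monolayer with formaldehyde. TAF3 was precipitated with a polyclonal antiserum to a stretch of the human protein, and H3K4me3 and RNAPII with commercial antibodies. The regions described here are weak H3K4me3 peaks without TAF3. They are peaks of the full H3K4me3 list that the authors left out of their filtered list, and they share no base with any peak of the full TAF3 list. There were 2282 of them, which is 12.7% of the 17975 H3K4me3 peaks and 62.1% of the 3677 peaks outside the filtered list. They covered 1.59 Mb and held 0.465% of the H3K4me3 tags, whereas the filtered peaks held 81.3%.

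H3K4me3 is trimethylation of lysine 4 on histone H3, a mark laid down around the start sites of active and poised genes, and also found at low level at some enhancers. TAF3 is a subunit of TFIID, the general transcription factor that binds core promoters, and its PHD finger binds H3K4me3. RNAPII is the enzyme that transcribes protein-coding genes and many noncoding RNAs. A weak H3K4me3 peak with no TAF3 peak can therefore be set against RNAPII, which played no part in choosing it.

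Depth after duplicate removal ran from 12560129 tags for H3K4me3 to 19185386 for input, with 17411155 for TAF3 and 16841238 for RNAPII. Each antibody has 1 library, so there is no replicate spread, peaks are not replicates, and no p-value is given. Intervals below are 95% intervals for the counting of peaks only. A TAF3 peak was called with as few as 10 tags, so "without TAF3" means that no TAF3 peak was detectable at this depth.

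These peaks were chosen by their H3K4me3 fold enrichment and false discovery rate and by the lack of TAF3 overlap, so their H3K4me3 values describe the choice and are not tested. The median peak had 22 tags (range 10 to 93), a width of 665 bp (177 to 2047 bp) and 11.94-fold enrichment over input (4.24 to 39.81). Filtered H3K4me3 peaks with TAF3 had a median of 713 tags and 131-fold enrichment. To enter the filtered list a peak needed more than 5-fold enrichment together with a rate of false discoveries under 5%. Of the 2282, 2274 failed on the false discovery rate alone and 8 failed on both. Their false discovery rates ran from 5.02% to 74.96% with a median of 24.1%.

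The values beside the thresholds show how closely members and other peaks adjoin. Just inside lay chr2:128173274-128174305, with 55 tags, 21.4-fold enrichment and a false discovery rate of 5.02%. Just outside lay the filtered peak at chr3:46599860-46600643, with 49 tags, 24.9-fold enrichment and a rate of 4.98%. The fold threshold had little weight. Member folds on its sides were 4.99 at chr1:17199149-17200220 and 5.03 at chr19:33568624-33569379, and the lowest fold in the filtered list was 9.43. On the TAF3 side, chr3:193851329-193851914 directly adjoined a TAF3 peak at a distance of 1 bp and is a member. The weak peak at chr17:17654974-17655578 shared 3 bp with TAF3 peaks and is not.

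Weak H3K4me3 peaks without TAF3 divided into 3 RNAPII classes, and the class with no RNAPII was the largest. No RNAPII peak of either list overlapped 957 of them (41.9%, interval 39.9 to 44.0%), against 6.61% of all H3K4me3 peaks. Another 774 met RNAPII in the full list only (33.9%, 32.0 to 35.9%), against 8.01% of all H3K4me3 peaks. The remaining 551 overlapped a filtered RNAPII peak (24.1%, 22.4 to 25.9%), against 85.4% of all H3K4me3 peaks. Together 1325 (58.1%) touched some RNAPII peak.

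**Figure D1:**
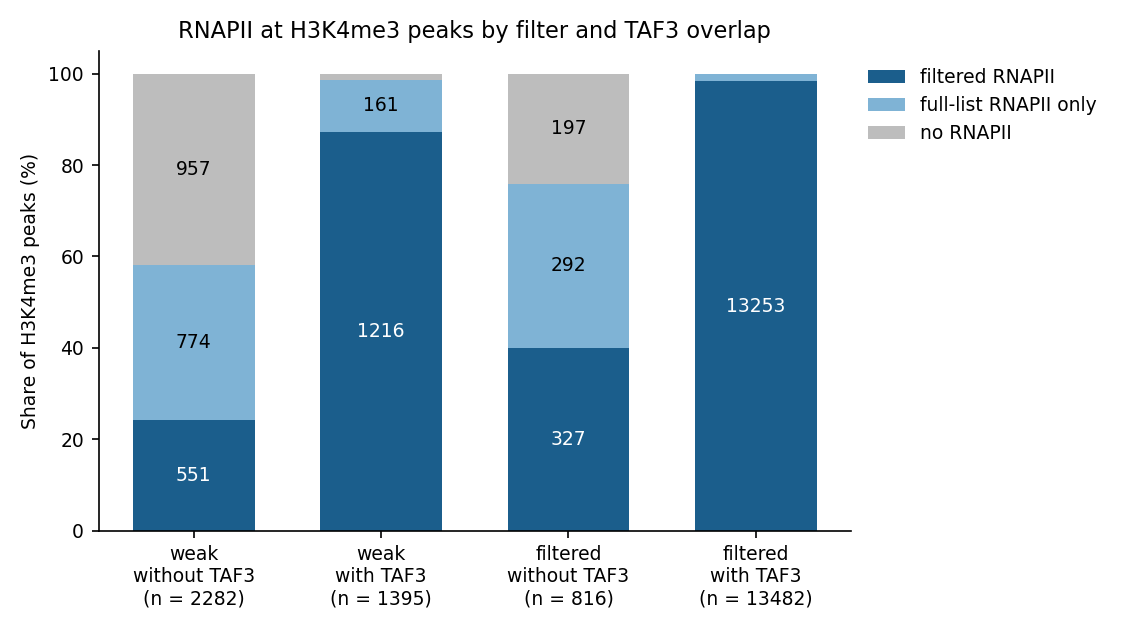
Stacked bars give the share (%) of H3K4me3 peaks with a filtered RNAPII peak, only a full-list RNAPII peak, or none, for weak and filtered peaks without and with TAF3; numbers in the bars count peaks. The weak peaks without TAF3, at the left, have 551 peaks on filtered RNAPII and 957 on none, whereas the weak peaks with TAF3 have 1216 on filtered RNAPII.

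Weak H3K4me3 peaks that did overlap TAF3 had a very different RNAPII makeup. Of those 1395 peaks, 1216 overlapped a filtered RNAPII peak (87.2%, interval 85.3 to 88.8%) and 18 overlapped none (1.29%). The share with filtered RNAPII was 63.0 percentage points lower in the peaks without TAF3 (interval of the difference -65.4 to -60.4), and the share with no RNAPII was 40.6 points higher (38.5 to 42.7). Filtered H3K4me3 peaks without TAF3 lay between, with filtered RNAPII at 327 of 816 (40.1%). The share in weak peaks without TAF3 differed from that by -15.9 points (interval -19.7 to -12.2). The full RNAPII list has 61456 peaks and the full TAF3 list 17887. Counting only the 17887 RNAPII peaks of highest score, 9.68% of the weak peaks without TAF3 overlapped one, and the difference from those with TAF3 was -56.6 points.

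The difference in RNAPII was present at every level of H3K4me3 enrichment. Weak peaks without and with TAF3 had median fold enrichments of 11.94 and 12.4 (difference -0.43, interval -0.75 to 0.004), but medians of 22 and 29 tags (difference -7, interval -8 to -5.59). Over 5 equal groups of fold enrichment, from lowest to highest, filtered RNAPII was present at 31.2%, 23.4%, 22.5%, 20.1% and 23.8% of the peaks without TAF3. In the same groups it was present at 91.7%, 86.8%, 84.6%, 89.8% and 82.5% of the peaks with TAF3. The intervals of these sets did not overlap in any of the 5 groups. Averaged over the groups, the difference was -63.0 points (interval -65.2 to -60.3).

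Tag number, in contrast to fold enrichment, ordered the RNAPII shares. Among weak peaks without TAF3 with 10 to 15 tags, 16.9% had a filtered RNAPII peak and 55.0% had none. With 16 to 22 tags filtered RNAPII stood at 21.5%, with 23 to 28 tags at 25.4% and with 29 to 39 tags at 27.7%. Among those with 40 to 93 tags, 34.9% had filtered RNAPII (interval 30.0 to 40.1%) and 22.9% had none. The median width went from 460.5 bp in the lowest to 1035 bp in the highest tag group. The H3K4me3 summit, a single position, lay inside a filtered RNAPII peak at 14.6% in the lowest and 32.8% in the highest group. In the same tag groups, 80.4% to 90.5% of the weak peaks with TAF3 had filtered RNAPII.

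**Figure D2:**
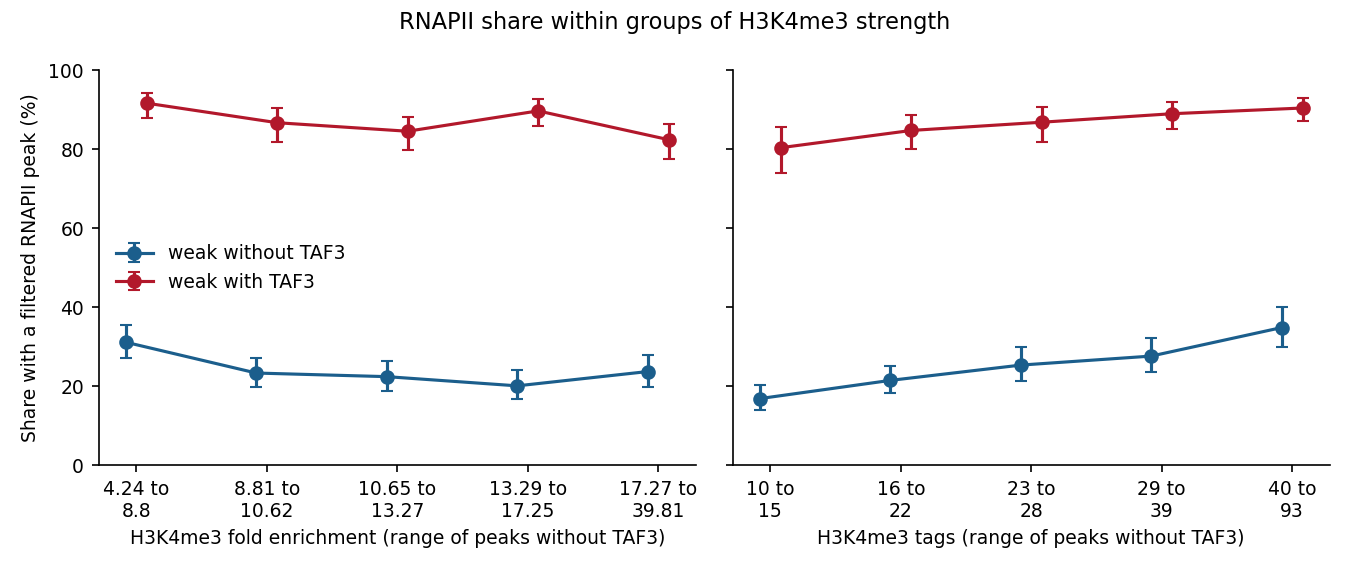
Points give the share (%) of weak H3K4me3 peaks with a filtered RNAPII peak, in 5 groups of H3K4me3 fold enrichment (left) and of H3K4me3 tags (right), with Wilson 95% intervals as bars. Peaks without TAF3 stay between 16.9% and 34.9% and those with TAF3 between 80.4% and 91.7%.

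Among the 3 RNAPII classes, those with RNAPII had more H3K4me3 tags than the class with none, while median fold enrichment differed by less than 1. Median fold enrichment was 11.28 (quartiles 8.76 and 15.4) with filtered RNAPII, 12.1 (9.29 and 16.5) with full-list RNAPII only and 11.94 (9.43 and 15.9) with none. Median tags were 26 (quartiles 18 and 37), 25 (17 and 35) and 19 (14 and 27) in the same order, and median widths 718, 704 and 604 bp. The filtered RNAPII class differed from the class with none by -0.66 in median fold enrichment (interval -1.49 to 0) and by 7 in median tags (4.76 to 8.41). It differed from the full-list class by -0.83 in median fold enrichment (interval -1.80 to -0.15). Among peaks with 20 tags or more, its difference from the class with none was -1.73 (interval -2.45 to -0.64). Tags per kb of peak were closer together, at 35.2, 35.3 and 32.2. The quartile ranges of all these measures overlapped between classes.

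**Figure D3:**
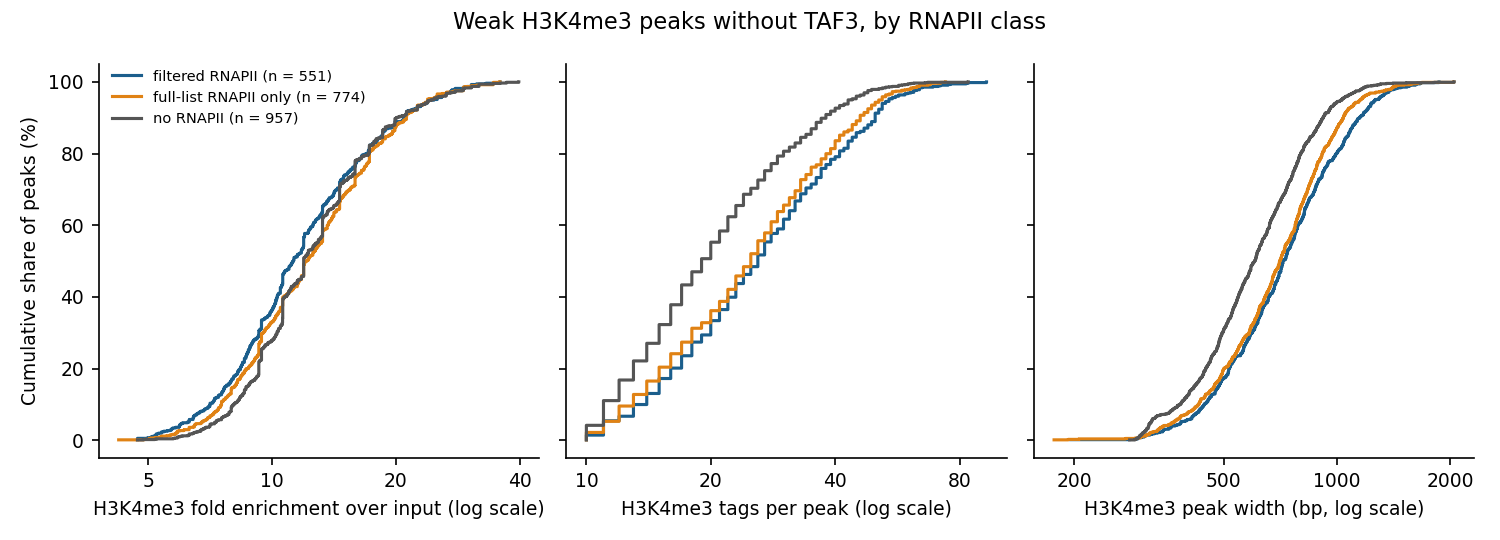
Cumulative curves of H3K4me3 fold enrichment, tags and peak width (log axes) for weak H3K4me3 peaks without TAF3, by RNAPII class. The fold enrichment curves lie close together, whereas the class with no RNAPII lies to the left in tags (median 19) and width (median 604 bp).

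How often the fold matched the genome-wide background also differed between the classes. MACS divides the tags at the summit by the largest of a genome-wide and 2 local expectations. From the file header the genome-wide expectation is 0.754 tags per 162 bp fragment window, so that each summit tag adds 1.327 to the fold when no local expectation is larger. The fold was a whole number of such steps, within 0.005, in 376 of the 957 peaks with no RNAPII (39.3%, interval 36.2 to 42.4%). Over all H3K4me3 peaks the share was 19.7%, but 85.4% of those overlapped filtered RNAPII. Among weak peaks without TAF3 it was so in 208 of 774 with full-list RNAPII only (26.9%) and in 97 of 551 with filtered RNAPII (17.6%). The last class stood 21.7 points under the class with no RNAPII (interval -26.0 to -17.1). Filtered H3K4me3 peaks without TAF3 had the same order, with 37.6% where there was no RNAPII, 29.1% with full-list RNAPII only and 17.4% with filtered RNAPII. The pattern was thus not particular to the weak peaks. Weak peaks with TAF3 had another order, at 27.8% (5 of 18), 34.8% (56 of 161) and 15.7% (191 of 1216). On this reading of the fold, the input near the peak was above the genome-wide expectation at the other peaks of each class. Input tags at the peaks were not counted, so this was not tested.

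Among weak peaks without TAF3, very narrow ones were most frequent where there was no RNAPII. A width of 340 bp or less was found at 68 of 957 peaks with no RNAPII (7.11%). It was found at 28 of 774 with full-list RNAPII only (3.62%) and 13 of 551 with filtered RNAPII (2.36%). Over all H3K4me3 peaks the share was 0.812%. Among weak peaks with TAF3, most of which had filtered RNAPII, it was 1.65%. By class in the same order, it was 5.56% (1 of 18), 4.97% (8 of 161) and 1.15% (14 of 1216) there. With full-list RNAPII only, narrow peaks were thus no rarer with TAF3 than without. Of the 68, 28 and 13, the numbers with 20 tags or more were 19, 1 and 2. Filtered H3K4me3 peaks without TAF3 had the same order on few peaks, with 5 of 197, 3 of 292 and 0 of 327 (upper bound of the interval 1.16%). Among weak peaks without TAF3, no RNAPII was found at 54.3% of the narrowest of 5 width groups and at 23.8% of the widest. With overlap set at 1 bp, a wider peak meets RNAPII more easily. The H3K4me3 summit, a single position, lay inside filtered RNAPII at 15.0% of the narrowest and 32.8% of the widest group. The H3K4me3 fragment length that MACS estimated was 162 bp.

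Weak peaks without TAF3 lay within 5 kb of a filtered H3K4me3 peak less often than weak peaks with TAF3 did. Their share was close to that of all H3K4me3 peaks, and those with filtered RNAPII lay nearest. Of the 2282, 400 (17.5%, interval 16.0 to 19.1%) were within 5 kb of a filtered H3K4me3 peak, against 18.4% of all H3K4me3 peaks. Among weak peaks with TAF3 the share was 32.8% (457 of 1395), and the difference was -15.2 points (interval -18.2 to -12.3). Within 1 kb the shares were already 8.33% (190 of 2282) and 20.6% (288 of 1395). At that distance a TAF3 peak over the filtered peak can extend onto the weak peak, which then leaves the 2282 by rule. The median TAF3 peak was 1243 bp wide. This difference may therefore follow in part from the choice and is description only. Among the 2282 the share within 5 kb was 28.9% (159 of 551) with filtered RNAPII, 14.6% with full-list RNAPII only and 13.4% with none. Among weak peaks with TAF3 it was 34.7%, 18.0% and 33.3% (6 of 18) in the same order. With filtered or full-list RNAPII these gaps were smaller than between the whole sets, whose RNAPII makeup differs. Among the peaks without TAF3, the filtered RNAPII class exceeded the class with none by 15.5 points (interval 11.2 to 19.9). The full-list class exceeded the class with none by 1.22 points (-2.04 to 4.56), a difference within counting error. The median distance to a filtered H3K4me3 peak was 15898 bp, 32825 bp and 42892 bp in the 3 classes. It was 16037 bp for weak peaks with TAF3 and filtered RNAPII. Of the 957 with no RNAPII and no TAF3, 443 (46.3%) were over 50 kb from every filtered H3K4me3 peak.

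TAF3 peaks followed the same order. The nearest TAF3 peak of the full list lay at a median of 12001 bp from weak peaks with filtered RNAPII, 28602 bp from those with full-list RNAPII only and 40760 bp from those with none. Within 5 kb of a TAF3 peak were 35.0%, 17.2% and 13.0%. A distance of under 1 kb to TAF3 was found for 185 of the 2282 (8.11%). Without peaks closer than 1 kb to TAF3, 22.0% of the rest had filtered RNAPII.

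**Figure D4:**
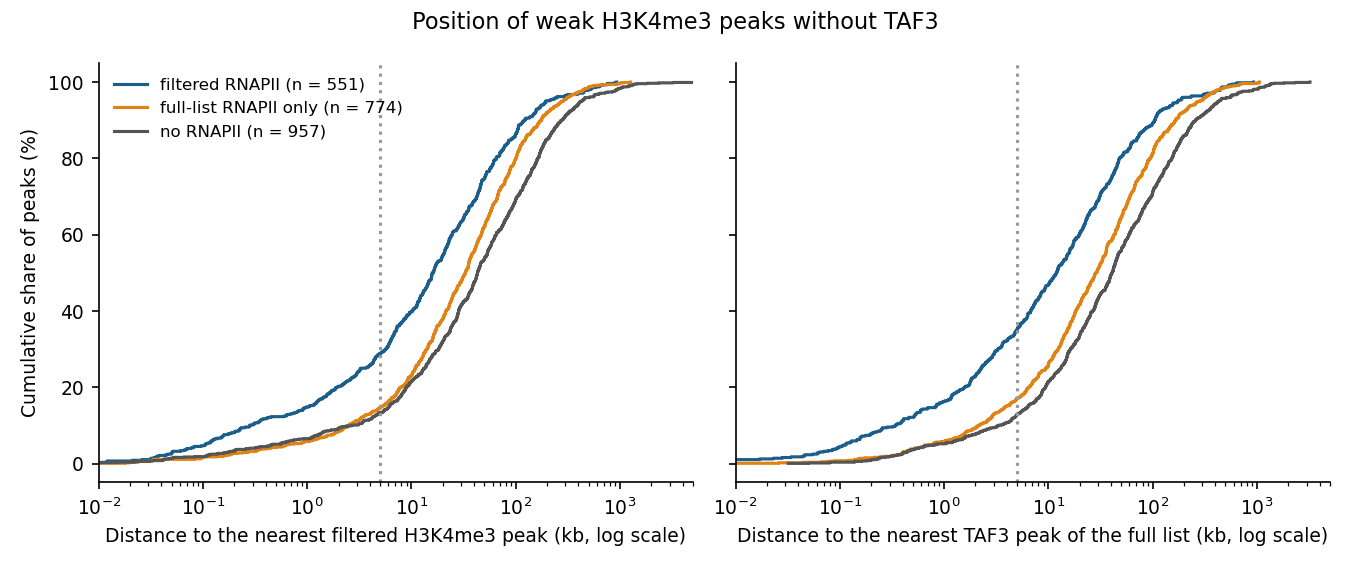
Cumulative share (%) of weak H3K4me3 peaks without TAF3 against the distance (kb, log axis) to the nearest filtered H3K4me3 peak (left) and the nearest full-list TAF3 peak (right), by RNAPII class; the dotted line marks 5 kb. The curve of the filtered RNAPII class lies above the others, with 28.9% within 5 kb of a filtered H3K4me3 peak and 35.0% within 5 kb of TAF3.

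The 551 peaks with filtered RNAPII mostly sat on RNAPII peaks without TAF3 and without a filtered H3K4me3 peak. For 457 of them (82.9%, interval 79.6 to 85.9%), the RNAPII peak touched neither TAF3 nor a filtered H3K4me3 peak. By rule the 551 share no base with TAF3 and are not filtered H3K4me3 peaks. This share therefore follows in part from the choice and is description only. Those RNAPII peaks had a median of 23.7-fold enrichment and a width of 891 bp, and the summits lay a median of 141 bp apart. In 65 of the 551 (11.8%) the RNAPII peak also overlapped a filtered H3K4me3 peak. That share is 54.6% over all filtered RNAPII peaks, but the 551 are by rule not filtered themselves, so nothing is read from this pair of values. Weak H3K4me3 peaks with TAF3, which are not filtered either, had 241 of 1216 (19.8%), and the difference was -8.02 points (interval -11.4 to -4.37). Of these 65, 53 also touched TAF3. In those 53 the RNAPII peak was strong and wide, with a median of 96.2-fold and 3140 bp, and the weak H3K4me3 peak lay a median of 155 bp from the filtered one and 941 bp from the RNAPII summit. The remaining 29 had an RNAPII peak that reached a TAF3 peak and no filtered H3K4me3 peak.

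RNAPII peaks that overlapped these peaks had lower fold enrichment than those that overlapped weak H3K4me3 peaks with TAF3. In the filtered RNAPII class the median RNAPII fold was 25.4 (quartiles 19.1 and 36.7) without TAF3 and 41.9 (26.9 and 68.2) with TAF3. The difference was -16.5 (interval -19.0 to -14.6). This fold belongs to the RNAPII summit, which lay inside the H3K4me3 peak at 71.7% without TAF3 and 70.5% with TAF3. Over all 25013 filtered RNAPII peaks the median was 44.8. RNAPII of 50-fold or more was found at 79 of 551 (14.3%) without TAF3 and 478 of 1216 (39.3%) with TAF3. In the full-list class the medians were 12.1 and 14.7 (difference -2.54, interval -3.90 to -1.12). The differences there in median RNAPII tags (-3, interval -5.24 to 1.12) and width (-23 bp, interval -60.4 to 12.0) were within counting error. Read the other way, as a description of the choice by TAF3, 53.7% of the weak H3K4me3 peaks in the lowest RNAPII fold group (7.02 to 21.2) lacked TAF3, compared with 13.0% in the highest (68.1 to 299).

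Summits of H3K4me3 and RNAPII lay close together in both classes with RNAPII. These classes were defined by overlap of the peaks, so the closeness follows in part from that definition and is description only. The median distance was 177 bp (quartiles 89 and 404.5 bp) with filtered RNAPII and 142.5 bp (68 and 240 bp) with full-list RNAPII only. For weak peaks with TAF3 and filtered RNAPII it was 209 bp, and the difference of -32 bp was within counting error (interval -63.2 to 8.25). The H3K4me3 summit was inside the RNAPII peak at 506 of 551 (91.8%) and 641 of 774 (82.8%). Summits over 1 kb apart were found at 47 of the 551 (8.53%) and 2 of the 774.

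**Figure D5:**
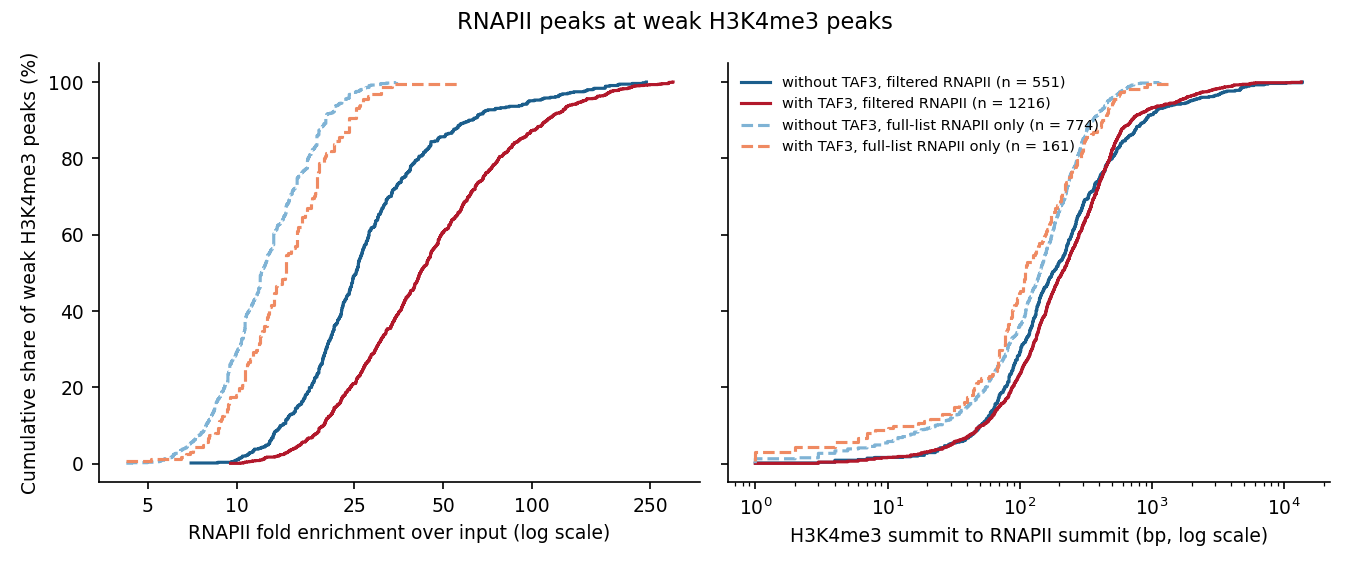
Cumulative share (%) of weak H3K4me3 peaks against the fold enrichment of the overlapping RNAPII peak (left, log axis) and the distance between H3K4me3 and RNAPII summits (right, bp, log axis, with 0 drawn at 1), without and with TAF3. With filtered RNAPII the curve for peaks without TAF3 lies to the left in fold enrichment (median 25.4 against 41.9), whereas the summit distances run together.

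Among single regions with filtered RNAPII, the 5 of highest H3K4me3 fold were not the 5 whose RNAPII peak had the highest fold. The highest H3K4me3 enrichment was 35.8-fold, at chr10:88963207-88964039 (38 tags) and chr7:97557203-97558012 (37 tags). RNAPII there had 34.9-fold enrichment with 90 tags and 36.1-fold with 39 tags, and both regions were over 40 kb from any filtered H3K4me3 or TAF3 peak. The 33.1-fold peak at chr6:10435326-10435955 stood 5 bp from a TAF3 peak, and its RNAPII peak (22.6-fold) touched TAF3. Next came chr19:1074928-1075442, with 31.4-fold H3K4me3 and 44.7-fold RNAPII, and chr4:9002204-9003208, with 30.5-fold and 37.4-fold. Apart from the region on chromosome 6, these RNAPII folds were above the class median of 25.4 (upper quartile 36.7). All 5 RNAPII peaks were 1141 bp wide or less, and 0 of them touched a filtered H3K4me3 peak.

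The 5 regions whose overlapping RNAPII peak had the highest fold lay near filtered H3K4me3 peaks, 4 of them within 1 kb. That fold belongs to the RNAPII summit, which lay outside the weak H3K4me3 peak at all 5. The summits were 1787 to 5899 bp apart, and the H3K4me3 peaks were 411 to 1173 bp wide. RNAPII of 243-fold enrichment spanned 5173 bp over chr19:11203344-11203754, an H3K4me3 peak of 10 tags located 344 bp from a filtered one. At chrX:39958813-39959823 RNAPII was 236-fold and the filtered peak 26 bp away, and at chr17:37619174-37619872 the values were 218-fold and 106 bp. The widest of the 5 RNAPII peaks, 29527 bp with 5095 tags at 197-fold, covered chr9:139737466-139738294, which was 46 bp from a filtered H3K4me3 peak. The last, chr12:6649016-6650188, had 194-fold RNAPII over 13619 bp and was 2962 bp from one. Their own H3K4me3 enrichment, from 8.80- to 14.1-fold, lay within the quartiles of their class, and all 5 RNAPII peaks touched both TAF3 and a filtered H3K4me3 peak elsewhere along their length.

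The regions with most tags were not those with the highest enrichment. With filtered RNAPII they were all on chromosome 17, at 70584659-70585907 (93 tags), 15553648-15555207 (84 tags) and 79702496-79703618 (83 tags), with H3K4me3 of only 8.29-, 8.21- and 10.1-fold. The RNAPII fold there was also low, at 9.62-, 13.7- and 8.65-fold. The RNAPII tags, at 100, 189 and 97, were above the class median of 86. With full-list RNAPII only they were chr1:16125639-16127680 (74 tags, 9.93-fold), chr21:47010650-47011565 (72 tags, 10.2-fold) and chr8:141247571-141249206 (72 tags, 6.43-fold). With no RNAPII they were chr17:47722873-47724919 (84 tags, 10.1-fold), chr17:70461450-70462629 (67 tags, 13.3-fold) and chr7:157943674-157944379 (66 tags, 9.46-fold). None of the 9 had a fold equal to a whole number of tags over the genome-wide expectation.

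Full-list RNAPII accompanied H3K4me3 of similar strength. The highest was chr8:11872104-11872939, with 42 tags and 35.8-fold enrichment, where RNAPII had 28.1-fold enrichment, 27 tags and a false discovery rate of 6.65%, just over the authors' limit. H3K4me3 of 34.5-fold was found at 4 more. Of these, chr6:32577553-32578399 had 28.1-fold RNAPII at a rate of 5.07%, and chr14:97228664-97229248 had 21.4-fold RNAPII with 18 tags. The other two, chr13:25154719-25155552 and chr16:29092828-29093516, had 9.35- and 14.7-fold RNAPII with 13 and 12 tags. The region on chromosome 16 was 98 bp from a filtered H3K4me3 peak, and the other 4 were over 20 kb from one.

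The highest enrichment of all 2282 was found where there was no RNAPII. At chr17:34612257-34612579, 30 tags fell within 323 bp (39.8-fold), with the nearest filtered H3K4me3 peak 229063 bp and the nearest RNAPII peak 185041 bp away. The peak at chr16:28723382-28723710 was similar in shape, with 30 tags in 329 bp (35.8-fold). Wider peaks stood at chr12:9043136-9043877 (37.2-fold, 37 tags) and chr19:40283482-40284113 (37.2-fold, 33 tags), the latter 2630 bp from an RNAPII peak. The most isolated of the 5 was chr8:88572474-88573170 (34.5-fold, 32 tags), 1044723 bp from a filtered H3K4me3 peak and 1045019 bp from RNAPII. At all 5 the fold was a whole number of steps, of 26 to 30 summit tags.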

How the data were processed

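Peak lists of TAF3, H3K4me3 and RNAPII (1 library each) were compared. Per the submitters' processing notes the authors used CASAVA 1.8.2, MACS 1.4.2 and build hg19; the aligner is not given in the sources used here. Calling used the same input for each antibody, a p cutoff of 1e-05 and at most 1 tag per position, per the file headers. The deposited values per peak are the tag count, the fold enrichment (a ratio to the expected background), a score (−log10 of the caller's p-value, times 10, or 3100 where p was too small to write) and the false discovery rate in percent. Each filtered list held the peaks above 5-fold with a rate under 5%, which was checked on the files.

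Overlap meant at least 1 bp; distances are edge to edge, and touching peaks are 1 bp apart. Where several RNAPII peaks overlapped, a filtered one was taken first, then the highest fold. Shares carry Wilson, differences of shares Newcombe, and differences of medians order-statistic 95% intervals. Named regions are, per RNAPII class, the 5 of highest H3K4me3 fold and the 3 with most tags, and the 5 with the highest RNAPII fold. Other definitions of overlap, nearness and membership were tried as alternatives. The regions and comparisons were chosen with earlier results of these data known. Coordinates are hg19, counted from 1. No hg19 genome or annotation was used here, so genes and sequences are not analysed here. Software was matplotlib 3.10.9, scipy 1.17.1, Python 3.11.15, pandas 2.3.3 and numpy 2.4.6. The code was tested on simulated data (9 of 9 checks) and against bedtools 2.31.1 (2 of 2 overlap counts equal).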

Additional observations from a re-analysis of the deposited data

How the results depend on the processing

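All 27 alternatives run for the 3 differences in shares kept their direction with intervals excluding 0. The difference in filtered RNAPII share from weak peaks with TAF3 ranged from -65.2 to -48.8 points. Shares of the 2282 depended more on the definition. The share with filtered RNAPII was 22.0% with 50% of the peak covered, 22.3% with the summit inside, 28.7% with RNAPII within 1 kb, 22.0% at least 1 kb from TAF3 and 28.2% with 20 tags or more. The share with full-list RNAPII only was 25.9% with 50% covered, 28.7% by summit and 37.7% with 20 tags or more. The share with none was 52.1%, 49.1%, 36.9% (within 1 kb) and 34.2% (20 tags or more). A filtered H3K4me3 peak lay within 2 kb of 11.6% and 10 kb of 26.6%, and within 5 kb of 12.5% of those at least 1 kb from TAF3. With 20 tags or more, median H3K4me3 fold differed by -1.73 (interval -2.45 to -0.64) between the filtered and no RNAPII classes, against -0.66 for all. Chosen after seeing the data were counting the 17887 highest-scoring RNAPII peaks in place of the filtered list (9.68% overlapped one, and 48.4% overlapped only RNAPII peaks below that rank, filtered ones among them) and leaving out RNAPII peaks that also overlap a filtered H3K4me3 peak (21.3%). With 1 library per antibody no replicate could be left out. With 10 to 93 tags per peak, some small differences between classes may have been missed, and no limit of detection was computed.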

Other observations

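On some chromosomes the share of weak H3K4me3 peaks without TAF3 differed from that of the filtered H3K4me3 peaks. Chromosome 10 held 128 of the 2282 (5.61%, interval 4.74 to 6.63%) and 4.15% of the filtered peaks, chromosome 7 held 6.22% against 4.89%, and chromosome 6 held 6.75% against 5.43%. Chromosome 22 held 1.71% against 2.65%, chromosome 11 4.12% against 5.30% and chromosome 17 4.78% against 6.12%. These chromosomes were chosen after their values were seen, and the intervals are not adjusted for the 24 chromosomes looked at. On chromosomes 6 and 11 the intervals of the compared shares overlapped. Chromosome 1, with the most of the 2282, held 9.55% against 10.0%. Weak peaks with TAF3 were not compared by chromosome. The RNAPII classes of the 2282 differed between chromosomes as well. On chromosome 19, 61 of 150 had filtered RNAPII and 37 (24.7%, interval 18.5 to 32.1%) had none, whereas on chromosome 7 it was 26 of 142 and 75 (52.8%, interval 44.6 to 60.8%).

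Certain stretches held a larger share of these peaks than of the filtered H3K4me3 peaks, and their RNAPII makeup varied. Between 26 and 29 Mb of chromosome 6 there were 29, of which 17 had no RNAPII and 2 had filtered RNAPII. Between 47 and 51 Mb of chromosome 19 there were 27, of which 1 had no RNAPII and 18 had filtered RNAPII. The first 4 Mb of chromosome 19 had the most of the 3 stretches, 31, and a mixed makeup of 15 with filtered RNAPII, 7 with full-list RNAPII only and 9 with none. All 3 stretches were chosen after their values were seen. In this order they held 1.27%, 1.18% and 1.36% of the 2282, compared with 0.650%, 0.825% and 0.951% of the filtered H3K4me3 peaks. No intervals were computed for these shares, which rest on few peaks. Chromosome 19 as a whole went the other way, with 6.57% of the 2282 and 7.44% of the filtered peaks. The megabase from 101 Mb of chromosome 7 held 7 weak peaks without TAF3 and 4 filtered ones.

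Weak peaks without TAF3 mostly lay apart from one another. Joined at gaps of up to 10 kb, they formed 2039 singles, 111 pairs and 7 groups of 3. Other H3K4me3 peaks were not counted in this joining. Within 10 kb of a filtered H3K4me3 peak were 606 of the 2282 (26.6%), against 39.9% of weak peaks with TAF3. Within 1 kb, where the lack of TAF3 overlap can bear on the choice, the shares were 8.33% and 20.6%. In 70 of the 111 pairs both were in the same RNAPII class. The share expected from the class sizes was not computed, so nothing is read from this count. The group at chr3:181418404-181427905 lay 654163 bp from any TAF3 peak and 1054 bp from a filtered H3K4me3 peak, with 1 of its 3 on full-list RNAPII. The group at chrX:39951064-39959823 had filtered RNAPII at all 3 and lay 84 bp from a TAF3 peak.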
